A study of Homo sapiens with 3 samples.

Results

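GNRH2, the gene of gonadotropin-releasing hormone 2, and MRPS26, a gene of the mitochondrial ribosome that lies next to it on chromosome 20, were followed across single cells of Caco-2 and HT29, both lines from human colorectal tumours, grown together on Transwell inserts. They are 2 of the 33538 genes in the deposited count matrices, and both rows were found by symbol in every library. They were selected on their co-expression across these same cells, so their relation to each other is given as a description, with no test. RNA was counted with the 10x Genomics 3′ assay as unique molecular identifiers (UMIs, 1 per captured molecule) in 3 libraries: 2 untreated controls and 1 culture that received 1 ng/ml Escherichia coli O111:B4 lipopolysaccharide (LPS) from day 22 for 24 h. All 3 cultures were seeded with 9 Caco-2 cells (passage 8) to 1 HT29 cell (passage 13) and trypsinized on day 23. LPS was applied to 1 culture, and the labels do not say whether the controls were seeded separately. The p-values below therefore reach no further than these libraries. They rest on a spread that edgeR shares between genes, which can differ from the spread of a single gene. After quality filters 4633, 4989 and 4850 cells remained in control 1, control 2 and LPS, with a median of 5459, 4103 and 3574 UMIs per cell. Levels are UMIs per 1000000 UMIs (CPM) of the summed cells, which in a 3′ assay are not divided by gene length.

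Gonadotropin-releasing hormones are short peptides cut from longer precursors. GNRH1 encodes the form released by the hypothalamus to drive the pituitary, while GNRH2 encodes a second form that is also made in tissues outside the brain, and both act on the receptor GNRHR. MRPS26 encodes a protein of the small subunit of the mitochondrial ribosome, which translates the few proteins encoded by mitochondrial DNA, and it is expected in every cell that respires. Caco-2 cells left at confluence take on features of small-intestinal enterocytes, and HT29 cells in such co-cultures stay mostly undifferentiated or form secretory cells.

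Both genes lie on the plus strand of GRCh38. GNRH2 (ENSG00000125787) spans chr20:3043622-3045747 in 4 exons and MRPS26 (ENSG00000125901) spans chr20:3046052-3048250 in 4 exons, with 304 bp between the end of the former and the start of the latter. The last GNRH2 exon, from 3045686 to 3045747, is 62 bp long and holds 1 AATAAA polyadenylation hexamer, which begins 23 bases before the annotated end of the gene. None of the 4 annotated GNRH2 transcripts (GENCODE 44) reached into MRPS26. The last MRPS26 exon, from which a 3′ assay reads most, is 516 bp long. The next genes are PTPRA, which ends 4545 bp before GNRH2, and OXT and AVP, which lie 23369 and 34305 bp beyond MRPS26.

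The 250 bases before each start site (RefSeq, GRCh38.p14) are shown because the MRPS26 sequence fills most of the space between the genes. Capitals mark the matches to the motifs that were searched on both strands.
GNRH2 (chr20:3043372-3043621, plus strand): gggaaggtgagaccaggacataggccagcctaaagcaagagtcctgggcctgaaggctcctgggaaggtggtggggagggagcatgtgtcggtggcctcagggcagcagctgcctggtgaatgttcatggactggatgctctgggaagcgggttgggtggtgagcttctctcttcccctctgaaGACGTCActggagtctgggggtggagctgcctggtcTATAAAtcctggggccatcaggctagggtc
MRPS26 (chr20:3045802-3046051, plus strand): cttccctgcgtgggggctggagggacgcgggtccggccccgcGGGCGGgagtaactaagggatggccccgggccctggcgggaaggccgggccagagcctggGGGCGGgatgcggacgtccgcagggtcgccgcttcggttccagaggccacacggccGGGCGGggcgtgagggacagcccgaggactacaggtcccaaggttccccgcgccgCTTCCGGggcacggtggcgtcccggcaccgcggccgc

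The upstream sequences differed in composition. That of GNRH2 had 60.4% G and C with 3 CG dinucleotides, and that of MRPS26 had 77.2% with 32, against medians of 58.0% and 11 over 35116 promoters. GNRH2 had 1 match to the letters of the TATA box, TATAAA, beginning 30 bases before its start, and these letters were on either strand of 10.7% of all promoters. It had 1 match to GACGTCA, the cyclic AMP response element without its first base, beginning 66 bases before its start, which 3.12% of promoters held. MRPS26 had 3 matches to GGGCGG, named for SP1, held by 42.6% of promoters, and 1 match to CTTCCGG, named for ETS factors, held by 8.52%. Neither window held the full cyclic AMP response element TGACGTCA, which contains the shorter one and was in 1.65% of promoters. The same was so of CAAAGTCCA, named for HNF4 (0.325% of promoters), of GTTAAT, named for HNF1 (6.23%), and of TTTATGG, named for CDX2 (2.30%). No motif was in both windows.

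Cells were grouped into 13 clusters without using either gene. Clusters 0, 1, 3, 4, 5, 6 and 10 had low HT29 markers without a marked loss of Caco-2 markers, and are called Caco-2-like. They held 3787, 3645 and 3865 cells of control 1, control 2 and LPS. Against all other cells, the mean log2 fold of the Caco-2 markers was above 0 in clusters 3 and 5 (1.32 and 0.79). It was -0.37, -0.61, -0.68, -0.01 and -0.32 in clusters 0, 1, 4, 6 and 10. 1 cluster carried HT29 markers (608, 891 and 801 cells, HT29-like), and the other 5 were given to neither line. A cluster took a cell type name only where its markers allowed one and is otherwise called by its leading genes.

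GNRH2 was abundant in the Caco-2-like cells. Its level was 566 CPM in control 1, 755 CPM in control 2 and 744 CPM in LPS, or 688 ± 106 CPM (SD, n = 3 libraries). MRPS26 was at 484, 485 and 457 CPM in the same libraries, or 476 ± 15.8 CPM (SD, n = 3). GNRH2 thus varied more between libraries than MRPS26, with the lowest value in control 1, the most deeply sequenced library.

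GNRH2 was held by few cells. With every cell thinned to 1500 UMIs, 22.7%, 27.7% and 29.0% of Caco-2-like cells had a GNRH2 UMI (33.5%, 37.0% and 38.8% before thinning), and 45.7%, 44.01% and 43.1% had an MRPS26 UMI (79.5%, 72.4% and 66.5% before thinning). The 10% of Caco-2-like cells with the most GNRH2 carried 80.9% of its thinned UMIs in control 1, 75.0% in control 2 and 72.8% in LPS. For MRPS26 these shares were 41.6%, 42.8% and 44.1%. The variance of the thinned GNRH2 count was 9.29, 10.2 and 9.49 times its mean, against 1.49, 1.67 and 1.65 times for MRPS26. The single cell with the most GNRH2 UMIs held 183, 116 and 303 in the 3 libraries before thinning.

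GNRH2 was highest in the enterocyte-like cluster, at 1498, 1832 and 1975 CPM in control 1, control 2 and LPS. These values lay above those of every other cluster. The S100A9 and CCL20 cluster (mean 982 CPM, range 661 to 1207) and the ITGA5 and RIMS4 cluster (mean 820 CPM, range 701 to 980) came next and overlapped each other. The transit-amplifying-like cluster, which carries proliferation genes, had 301, 481 and 366 CPM, and the stem-like cluster 35.5, 78.0 and 68.6 CPM. From the S100A9 and CCL20 cluster down, each cluster overlapped the next in the order of the means, so neighbouring ranks do not differ beyond the spread of the libraries.

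MRPS26 followed the same order at the top. It was at 731, 873 and 723 CPM in the enterocyte-like cluster, 597, 644 and 581 CPM in the S100A9 and CCL20 cluster, 520 CPM on average in the ITGA5 and RIMS4 cluster, 470, 436 and 461 CPM in the transit-amplifying-like cluster and 228, 207 and 193 CPM in the stem-like cluster. The enterocyte-like values lay above the others, while the lowest value of the S100A9 and CCL20 cluster and the highest of the ITGA5 and RIMS4 cluster were both 581 CPM. The mean level from the stem-like to the enterocyte-like cluster spanned 60.7 to 1768 CPM for GNRH2 and 209 to 776 CPM for MRPS26. The ALB and AFP cluster had means of 229 CPM of GNRH2 and 341 CPM of MRPS26. Its mean log2 fold of the stem markers, which include ALB and AFP, was 1.32, against 1.12 in the stem-like cluster. In the STC1 cluster, which holds 86 Caco-2-like cells, GNRH2 was at 18.0, 25.9 and 19.8 CPM (1, 4 and 4 UMIs) while MRPS26 was at 180, 253 and 124 CPM.

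**Figure D1:**
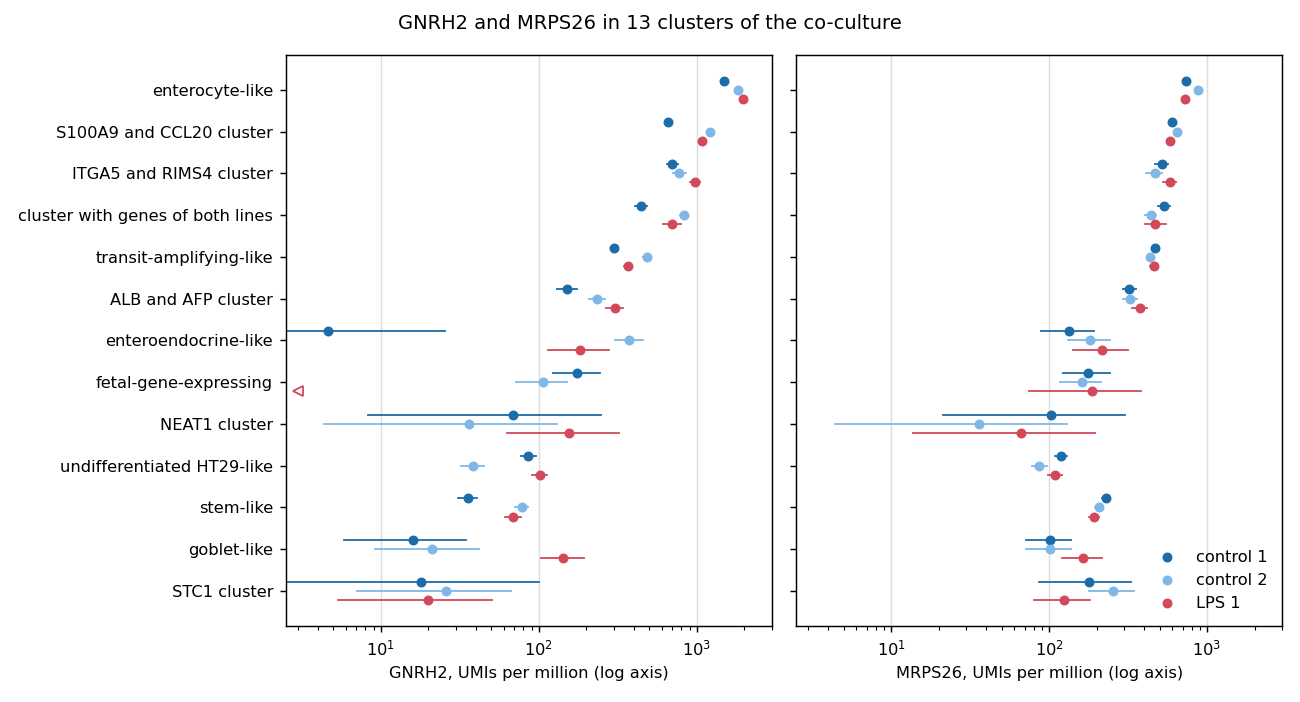
GNRH2 (left) and MRPS26 (right) in each of 13 clusters, in CPM on a log axis, with 1 point per library and exact Poisson 95% intervals, which cover counting error only. An open triangle marks a library with 0 UMIs. The enterocyte-like cluster is highest for both genes (mean 1768 and 776 CPM), and the spread from the lowest to the highest cluster is wider for GNRH2.

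Among the cells of neither line, GNRH2 was uneven. The enteroendocrine-like cluster had 1 GNRH2 UMI in 62 cells of control 1 (4.61 CPM) but 95 in 86 cells of control 2 (374 CPM), of which 56 came from 1 cell, and 22 in 33 cells of LPS (183 CPM). MRPS26 was at 134, 181 and 216 CPM there. The goblet-like cluster had 15.9 and 21.2 CPM of GNRH2 in the controls and 143 CPM in LPS, where 18 of 43 UMIs came from 1 cell. The fetal-gene-expressing cluster had 176 and 106 CPM in the controls and 0 UMIs in 8 cells of LPS. In these clusters the libraries therefore differ through a few cells, and the levels carry no order. The cluster with genes of both lines had 657 CPM of GNRH2 and 482 CPM of MRPS26 on average. Its median was 12510.5, 5364 and 7688 UMIs per cell in control 1, control 2 and LPS, against 5459, 4103 and 3573.5 over all kept cells. Whether its barcodes held more than 1 cell was not tested.

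Both genes were higher in Caco-2-like than in HT29-like cells of the same culture. In HT29-like cells GNRH2 was at 85.8, 38.1 and 101 CPM and MRPS26 at 120, 86.9 and 109 CPM. GNRH2 was 6.59-, 19.8- and 7.33-fold higher in the Caco-2-like cells of control 1, control 2 and LPS, and MRPS26 was 4.05-, 5.58- and 4.18-fold higher. By edgeR's quasi-likelihood test, fitted to sums per library with the library as a term, the log2 fold change was 3.28 (SE 0.18, adjusted p = 1.458e-13) for GNRH2 and 2.22 (SE 0.10, adjusted p = 4.916e-15) for MRPS26, higher in 3 of 3 libraries each. Per library the log2 ratio of GNRH2 was 2.72, 4.31 and 2.87 (SD 0.87), and that of MRPS26 had an SD of 0.26. The SE of the fit uses a spread shared between genes, so it does not convey this spread of GNRH2. Such a call was common between the lines, since 37.2% of the 13907 genes tested were called higher and 34.6% lower in Caco-2-like cells. The pair was selected on co-expression across cells of both lines, to which a shared difference between the lines contributes. The p-values of the members between the lines are therefore not independent of the selection.

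The 16 Caco-2 markers were also counted in HT29-like cells. In HT29-like cells of control 1, control 2 and LPS these stood at a median of 12.1%, 7.48% and 12.6% of their Caco-2-like level, from 5.45%, 4.17% and 6.68% (APOB in the controls, FGB in LPS) up to 90.0%, 108% and 89.0% (APOH). GNRH2 stood at 15.2%, 5.05% and 13.6%, above 11, 3 and 9 of the 16 markers. MRPS26 stood at 24.7%, 17.9% and 23.9%, above 13, 12 and 12 of them, with SERPINA1, VIL1 and APOH higher in each library. Both members lay inside the range of the markers. Its upper end is set by APOH, which was at a similar level in both lines, so lying inside it says little about either member. Of the HT29-like cells, 2.30%, 3.37% and 5.37% had a GNRH2 UMI after thinning (6.25%, 7.41% and 9.36% before), at a median of 5537, 3790 and 3750 UMIs per cell against 5455, 4204 and 3548 in Caco-2-like cells. A single cell held 91 of the 341 GNRH2 UMIs of the HT29-like cells of control 1. How much of the marker RNA and of the GNRH2 in HT29-like cells came from other cells was not tested.

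GNRH2 was not higher than in HT29-like cells in every Caco-2-like cluster. In the STC1 cluster, on 1, 4 and 4 UMIs, it was at 18.0, 25.9 and 19.8 CPM, below the HT29-like cells of each library. The stem-like cluster alone was set against the HT29-like cluster, a comparison added after the data were seen. The fitted log2 fold change of GNRH2 was then -0.40 (SE 0.18, adjusted p = 0.043, edgeR's quasi-likelihood test). The libraries did not share this direction. GNRH2 was at 35.5, 78.0 and 68.6 CPM in stem-like cells and 85.8, 38.1 and 101 CPM in HT29-like cells, so it was higher in the former in control 2. There 1 stem-like cell held 116 of 406 GNRH2 UMIs. The fitted value of the enterocyte gene APOA4 also turned, from 3.94 to -1.16. MRPS26 stayed higher, with a log2 fold change of 0.91 (SE 0.09, adjusted p = 6.8e-12). In a further comparison that was not planned, only cells with 0 thinned GNRH2 UMIs were taken from both lines. MRPS26 was higher in the Caco-2-like cells by 2.05 (SE 0.09, adjusted p = 1.885e-14, same test). These cells were not free of GNRH2. Before thinning it was at 53.0, 55.3 and 65.1 CPM in the Caco-2-like cells of control 1, control 2 and LPS. In the HT29-like cells it was at 16.2, 16.9 and 15.2 CPM.

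LPS did not move either gene detectably. In Caco-2-like cells the LPS library's GNRH2 level (744 CPM) lay between those of the controls (566 and 755 CPM), with a log2 fold change of 0.08 (SE 0.34, adjusted p = 0.994, edgeR). Its MRPS26 level (457 CPM) lay below both controls (484 and 485 CPM), with a log2 fold change of -0.18 (SE 0.21, adjusted p = 0.991). In HT29-like cells the log2 fold change was 0.65 (SE 0.38, adjusted p = 1.0) for GNRH2 and 0.02 (SE 0.22, adjusted p = 1.0) for MRPS26, with the LPS value above both controls for GNRH2 and between them for MRPS26. The lone LPS library is assumed to vary as the controls do, and the sums of both lines from the same culture are treated as independent. Of the 14925 genes tested, 0.0% were called in Caco-2-like cells and 0.0067% (IFIT3, an interferon-induced gene that lies outside the naming rule) in HT29-like cells, with 387 and 527 genes at an unadjusted p below 0.05. DESeq2 called 0 and 4 genes, with 60 and 158 below 0.05.

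MRPS26 rose with the GNRH2 count of the cell. Caco-2-like cells were grouped by their GNRH2 UMIs after thinning to 1500, and the unthinned MRPS26 UMIs of each group were summed. In control 1 MRPS26 was at 407 CPM in cells with 0 GNRH2 UMIs, 612 CPM with 1, 705 CPM with 2 to 3, 849 CPM with 4 to 7 and 1239 CPM with 8 or more. The last group held 120 of 3787 cells and was 3.04-fold above the first. In control 2 MRPS26 went from 364 to 1310 CPM, or 3.59-fold, and in LPS from 344 to 1168 CPM, or 3.39-fold. Every step was upward in each library. Per cell, 63.1%, 62.0% and 60.9% of Caco-2-like cells with a thinned GNRH2 UMI had one of MRPS26, against 40.5%, 37.1% and 35.8% of those without. Cells with more GNRH2 were shallower, with a median of 5538, 4307 and 3589 UMIs at 0 GNRH2 UMIs and 5050, 3770 and 3435 at 4 or more.

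The rise was also seen inside single clusters. Within the enterocyte-like cluster MRPS26 was at 648, 745 and 588 CPM in cells with 0 thinned GNRH2 UMIs and at 1231, 1450 and 1101 CPM with 8 or more, a 1.90-, 1.95- and 1.87-fold difference. There it hardly moved between 0 and 1 GNRH2 UMI, with ratios of 0.958, 0.985 and 1.09. Within the S100A9 and CCL20 cluster the same extremes differed 2.34-, 2.17- and 2.27-fold, and within the transit-amplifying-like cluster 2.60-, 2.51- and 3.06-fold, the latter on 10, 16 and 10 cells. These were smaller than over all Caco-2-like cells, but the ITGA5 and RIMS4 cluster was not, with 4.47-fold in LPS on 13 cells with 8 or more. With 4 to 7 GNRH2 UMIs that cluster had 1.89-, 2.96- and 3.50-fold the MRPS26 of its cells at 0, on 12, 10 and 16 cells. Between 0 and 1 GNRH2 UMI the ratios were 1.19, 1.01 and 1.12 in the S100A9 and CCL20 cluster. They were 2.09, 1.56 and 1.19 in the stem-like cluster, on 19, 30 and 48 cells with 1 GNRH2 UMI.

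**Figure D2:**
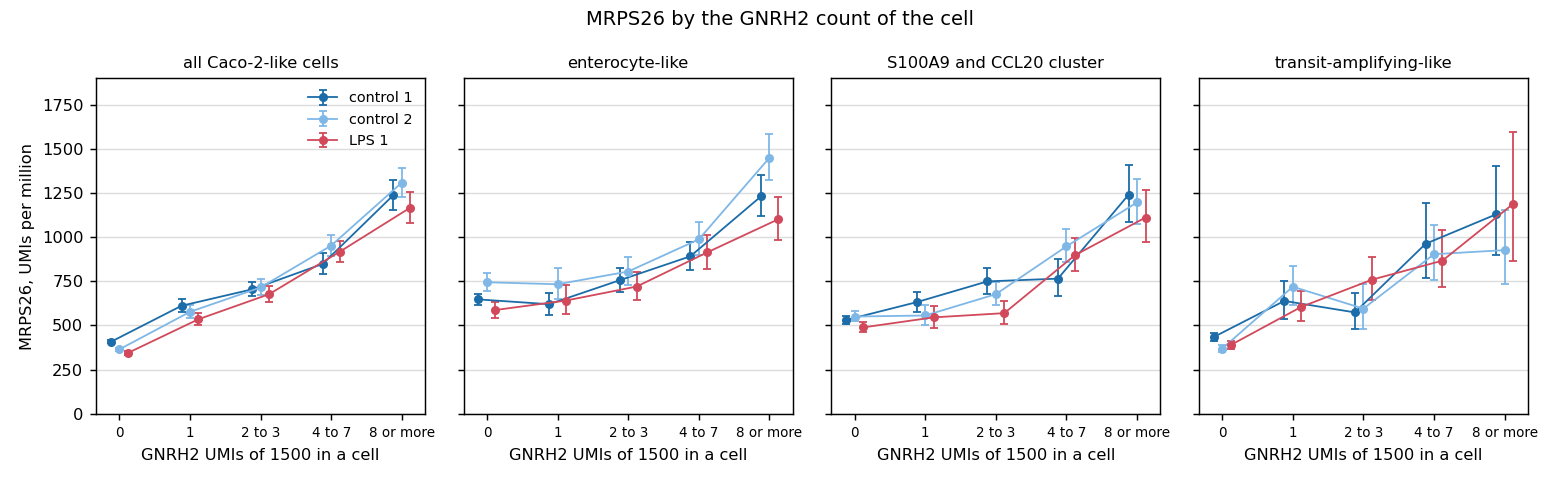
MRPS26 level in CPM against the number of GNRH2 UMIs among 1500 UMIs of a cell, for all Caco-2-like cells and inside 3 clusters. Points are libraries with exact Poisson 95% intervals for counting error. In all Caco-2-like cells MRPS26 climbs from 344 to 407 CPM at 0 GNRH2 UMIs to 1168 to 1310 CPM at 8 or more, and in the enterocyte-like cluster from 588 to 745 CPM to 1101 to 1450 CPM.

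Pearson's r between the genes across Caco-2-like cells, on the log of 1 plus the counts per 10000, was 0.353 in control 1 (3787 cells), 0.414 in control 2 (3645 cells) and 0.393 in LPS (3865 cells). The cells of a library share its depth and its free RNA, so r is a description. On thinned counts it was 0.233, 0.284 and 0.291. It was positive in each library in all 6 Caco-2-like clusters with at least 200 cells, with means from 0.135 in the stem-like to 0.436 in the ITGA5 and RIMS4 cluster. In HT29-like cells it was 0.325, 0.133 and 0.255, at the low GNRH2 levels given above.

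By mean r, MRPS26 was the third most GNRH2-like of 7501 genes with at least 10 CPM in each library (mean r 0.387). LGALS14, a galectin (0.441), and the apolipoprotein gene APOA4 (0.426) came before it. LGALS3 (0.380), APOC3 (0.368), LGI4 (0.363), CKB (0.361), ZG16 (0.354), FXYD3 (0.335) and FABP1 (0.330) followed. MRPS26 fell to place 7 on thinned counts. The lowest were MDK (-0.308), HSP90AB1 (-0.238), HMGB1 (-0.222), RAN (-0.216) and SOX4 (-0.214), whose products serve growth signalling, protein folding, chromatin, nuclear transport and progenitor programmes. APOA4 and APOC3 encode lipid carriers, FABP1 a fatty acid binding protein, ZG16 a secreted lectin and CKB a creatine kinase.

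GNRH2 was the fourth most MRPS26-like gene, after CKB (creatine kinase B, 0.450), LGALS14 (0.422) and LGALS3 (0.420). APOC3, FXYD3, PHGR1, ZG16, APOA4 and TMEM141 completed the first 10, with mean r from 0.349 to 0.317. No other mitochondrial ribosome gene was among the first 10 of MRPS26.

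MRPS26 had a higher mean r with GNRH2 than every other mitochondrial ribosome gene with at least 10 CPM. For the 31 other small-subunit genes with at least 10 CPM, mean r with GNRH2 ran from -0.094 to 0.130, the highest being MRPS6, with a median of -0.043. For 47 large-subunit genes it ran from -0.109 to 0.019 with a median of -0.046, and over all 7501 genes the median was -0.020. With MRPS26 itself the other small-subunit genes reached at most 0.093 (MRPS6), with a median of -0.017. The r of 0.387 between MRPS26 and GNRH2 lay outside the range of the other mitochondrial ribosome genes, a description over 3 libraries. MRPS26 was selected on this co-expression, so its place is no independent support. The genes were not matched for level.

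**Figure D3:**
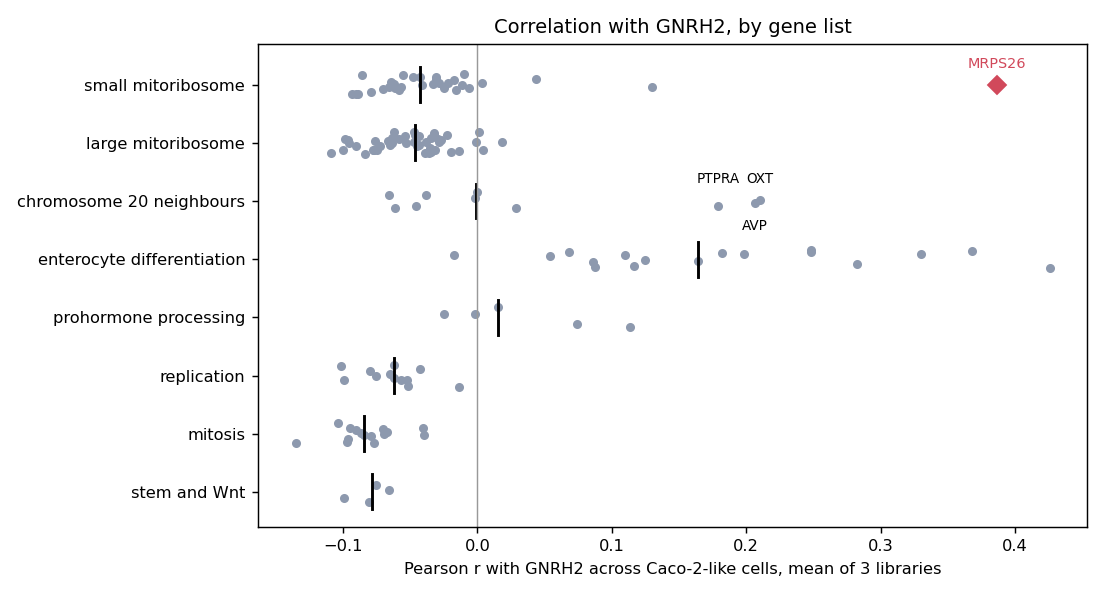
Mean over 3 libraries of Pearson's r with GNRH2 across Caco-2-like cells, for genes of 8 lists with at least 10 CPM, with 1 grey point per gene (vertical position within a list is random) and a black bar at the list's median. MRPS26 (red diamond, 0.387) lies beyond all other genes of both mitochondrial ribosome lists, and OXT, AVP and PTPRA are the 3 highest of the chromosome 20 neighbours.

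To ask what else marks the GNRH2 cells, Caco-2-like cells with 4 or more thinned GNRH2 UMIs (GNRH2-high: 283, 404 and 411 cells) were compared with those at 0 (GNRH2-zero: 2927, 2635 and 2745 cells) in sums per library. Before thinning the GNRH2-zero cells still had 53.0, 55.3 and 65.1 CPM of GNRH2. MRPS26 was at 1005, 1099 and 1011 CPM in GNRH2-high and 407, 364 and 344 CPM in GNRH2-zero cells, a ratio of 2.47, 3.02 and 2.94. Its fitted log2 fold change was 1.69, given without a test, and its log2 ratio per library had an SD of 0.16. The GNRH2-high cells were 55.1%, 40.8% and 41.1% enterocyte-like and 1.06%, 1.73% and 1.95% stem-like, against 14.7%, 10.5% and 10.3% and 31.9%, 37.4% and 36.0% of the GNRH2-zero cells. The part of this makeup in the differences below was assessed only by the comparisons inside single clusters. Those inside the S100A9 and CCL20 and the transit-amplifying-like clusters were not planned.

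Of the 81 other mitochondrial ribosome genes tested, more fell than rose over all Caco-2-like cells, and few were called inside single clusters. In edgeR's quasi-likelihood test 7 of them rose and 30 fell in GNRH2-high cells, with a median log2 fold change of -0.17, against 18.3% higher, 16.0% lower and a median of -0.02 over 12693 genes. MRPS24 (0.98, SE 0.34, adjusted p = 0.0239) and MRPS6 (0.89, SE 0.07, adjusted p = 2.902e-11) rose most, and MRPL15 (-0.89), MRPS23 (-0.70) and MRPL9 (-0.70) were among those that fell. MRPS24 was at 4.87 to 5.62 CPM in GNRH2-high cells, so its change rests on few UMIs, and its adjusted p was 0.0749, 0.0714 and 0.1 without control 1, control 2 and LPS. Inside the enterocyte-like cluster 0 rose and 0 fell (median -0.02), and inside the S100A9 and CCL20 cluster 1 rose and 0 fell (-0.03). Inside the transit-amplifying-like cluster 1 rose and 1 fell (-0.25). Over all genes tested in these clusters the medians were 0.005, 0.012 and -0.03. In the transit-amplifying-like cluster the median of the mitochondrial ribosome genes was thus below that of all genes. MRPS26, which was selected on its co-expression with GNRH2, ranked first of the 82, a description. It was also first of 76 inside the enterocyte-like cluster (0.74, next MRPL24 at 0.34), of 79 inside the S100A9 and CCL20 cluster (0.99, next MRPS6 at 0.42) and of 79 inside the transit-amplifying-like cluster (1.38, next MRPL17 at 0.74).

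Among all genes MRPS26 was not the leader across Caco-2-like cells. By fold it was number 46 of 6552 genes at 10 CPM or more in GNRH2-high cells of each library, with GNRH2 left out. It was number 23 of 6076 inside the enterocyte-like cluster, 16 of 5884 inside the S100A9 and CCL20 cluster and 72 of 5410 inside the transit-amplifying-like cluster. Few genes passed the threshold there: 0.57% were called higher inside the enterocyte-like, 0.811% inside the S100A9 and CCL20 and 2.05% inside the transit-amplifying-like cluster.

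The genes beside the pair moved with it in part. PTPRA, a receptor-type tyrosine phosphatase upstream of GNRH2, was at 232, 252 and 309 CPM in GNRH2-high and 161, 137 and 165 CPM in GNRH2-zero cells (log2 fold change 0.97, SE 0.07, adjusted p = 1.225e-12). OXT, the oxytocin precursor gene, was at 217, 161 and 175 CPM against 97.7, 71.6 and 90.2 CPM (1.30, SE 0.07, adjusted p = 3.302e-15). AVP, the vasopressin precursor gene, was at 195, 160 and 146 CPM against 88.9, 70.0 and 73.4 CPM (1.31, SE 0.07, adjusted p = 3.37e-15). Of all genes tested 18.3% were called higher. FASTKD5, of mitochondrial RNA processing, rose by 0.58 (SE 0.21, adjusted p = 0.036) at 10.3 to 14.1 CPM in GNRH2-high cells, and its adjusted p was 0.383 without control 2.

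VPS16, of endosomal tethering (0.31, adjusted p = 0.211), and UBOX5, of ubiquitin transfer (-0.58, adjusted p = 0.189), did not pass. Of the 14 neighbours tested besides the members, 5 rose and 3 fell (18.3% and 16.0% over all genes), the largest fall being that of CDC25B (-0.90, adjusted p = 0.000523), a phosphatase of the cell cycle. OXT and AVP share an identical run of 83 bases in their transcripts, so reads may be shared between them, and FASTKD5 lies inside the span of UBOX5 on the same strand.

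Inside the enterocyte-like cluster OXT, AVP and PTPRA did not pass the test. In the enterocyte-like cluster MRPS26 was at 1026, 1187 and 996 CPM in GNRH2-high and 648, 745 and 588 CPM in GNRH2-zero cells. OXT was at 291, 217 and 255 CPM against 266, 299 and 275 CPM (log2 fold change -0.07, SE 0.09, adjusted p = 0.899), AVP at 212, 195 and 175 CPM against 213, 196 and 171 CPM (0.05, SE 0.09, adjusted p = 0.947) and PTPRA at 230.4, 236 and 330.4 CPM against 225, 210.3 and 229.8 CPM (0.28, SE 0.09, adjusted p = 0.261). OXT and AVP overlapped there between GNRH2-high and GNRH2-zero cells. For PTPRA the lowest value in GNRH2-high cells (230.4 CPM) was close to the highest in GNRH2-zero cells (229.8 CPM).

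In the S100A9 and CCL20 cluster PTPRA (0.51, SE 0.10, adjusted p = 0.000294) and AVP (0.48, SE 0.12, adjusted p = 0.00704) rose, while OXT had 0.20 (adjusted p = 0.673). In the transit-amplifying-like cluster PTPRA (0.99, adjusted p = 2.433e-08), AVP (1.20, adjusted p = 1.663e-05) and OXT (0.93, adjusted p = 0.0173) rose. Across lines OXT and AVP were at 4.15 to 12.6 CPM in HT29-like against 88.9 to 119 CPM in Caco-2-like cells (log2 fold change 3.55 and 3.31).

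**Figure D4:**
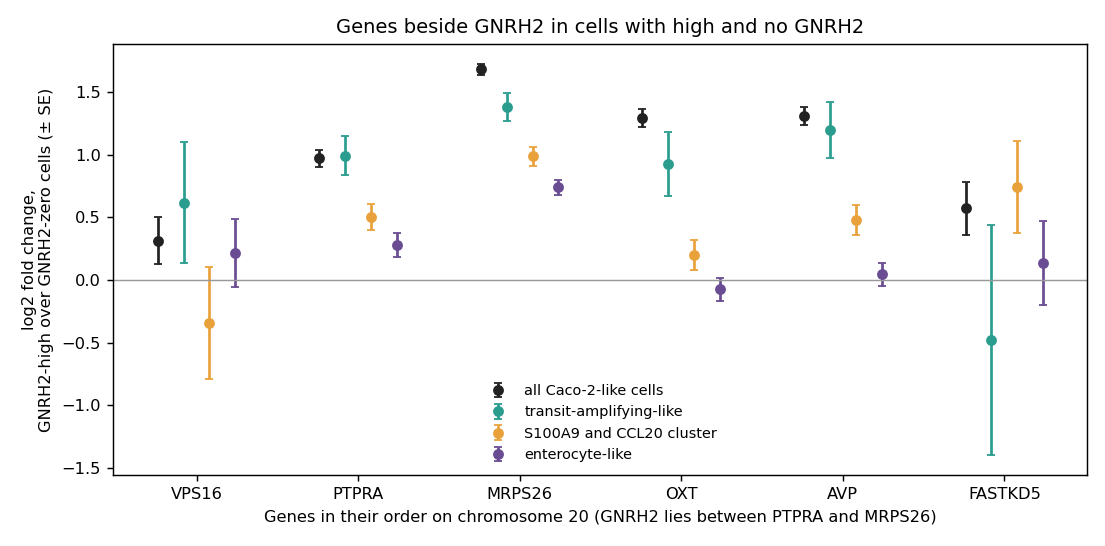
Log2 fold change of GNRH2-high over GNRH2-zero cells (edgeR fit, ± SE) for genes in their order on chromosome 20, in all Caco-2-like cells and inside 3 clusters. MRPS26 stays above 0 in each set (0.74 to 1.69), while OXT and AVP go from 1.30 and 1.31 in all Caco-2-like cells to -0.07 and 0.05 in the enterocyte-like cluster. The SE uses a spread shared between genes and is no test of MRPS26.

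The cells with high GNRH2 carried enterocyte genes and few cell-cycle or stem genes. Of 20 enterocyte differentiation genes, 19 rose and 0 fell, with a median log2 fold change of 1.64. Of all genes tested 18.3% rose and 16.0% fell. APOA4 was at 4500, 3391 and 4163 CPM in GNRH2-high against 1064, 672 and 781 CPM in GNRH2-zero cells (2.48, SE 0.04, adjusted p = 3.115e-28). SLC2A5, the fructose transporter gene, was at 147, 204 and 228 CPM against 36.3, 38.4 and 50.5 CPM (2.41, SE 0.08). Among genes of at least 10 CPM in GNRH2-high cells, the others with the largest rise were RNF186, TBX10, AC087482.1, ZG16, COL16A1, GUCA2B, S100G and SUSD2, with log2 fold changes from 2.44 to 2.02. Inside single clusters fewer enterocyte genes moved. In the enterocyte-like cluster 2 rose and 2 fell of 20. In the S100A9 and CCL20 cluster 5 rose of 17, and in the transit-amplifying-like cluster 8 rose of 13. Of all genes tested there 0.57%, 0.811% and 2.05% were called higher, and 14 of 7541, 25 of 8628 and 75 of 8956 lower.

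All 15 mitosis genes fell, with CENPE at -1.68 and PLK1 at -1.49 the furthest and a median of -1.08. For comparison, 16.0% of all genes tested fell and 18.3% rose. Of 15 replication genes 10 fell and 0 rose (median -0.63), with DTL at -1.05 (adjusted p = 0.0104, and 0.113 without control 2). Of 10 stem and Wnt genes 8 fell and 0 rose. LGR5, the receptor that marks intestinal stem cells, had 0, 0 and 0.624 CPM in GNRH2-high and 7.80, 5.45 and 6.23 CPM in GNRH2-zero cells. Among genes of at least 10 CPM in GNRH2-zero cells, the largest falls were those of UCHL1 (-3.77), ITIH2 (-3.51), DKK1 (-3.12), PLA2G2A (-3.05) and BCL7A (-2.96). DKK1 was at 0.609, 17.9 and 6.86 CPM in GNRH2-high cells and had -2.56 without control 1 and -4.40 without control 2. Inside the enterocyte-like cluster 1 of 11 tested mitosis genes fell, inside the S100A9 and CCL20 cluster 5 of 15, and inside the transit-amplifying-like cluster 1 rose and 0 fell of 15. In the same clusters 0 of 6, 0 of 9 and 2 of 15 replication genes rose and 0 fell. None of the 4 stem and Wnt genes tested in each passed. Of all genes tested there, 14 of 7541, 25 of 8628 and 75 of 8956 fell, and 43, 70 and 184 rose.

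Genes that could process or meet the hormone were also followed. Of 11 prohormone processing genes tested of 14, 5 rose and 0 fell in GNRH2-high cells. PAM, which amidates peptide hormones such as gonadotropin-releasing hormone, was at 58.4, 50.4 and 70.5 CPM against 33.2, 24.5 and 35.1 CPM (1.15, SE 0.11, adjusted p = 3.523e-10), and the proprotein convertase gene PCSK6 had 1.07 (SE 0.16). Over all genes 18.3% were called higher and 16.0% lower. Inside the enterocyte-like, S100A9 and CCL20, and transit-amplifying-like clusters none of the 6, 5 and 6 tested genes of the list passed. PAM had log2 fold changes of 0.031, 0.30 and 0.54 there, and PCSK6 of 0.58, 0.28 and 0.24. QPCT, which forms the pyroglutamate at the start of such peptides, was at 4.47, 4.91 and 4.77 CPM in Caco-2-like and 134, 149 and 136 CPM in HT29-like cells (log2 fold change -4.85, SE 0.11, adjusted p = 2.758e-20).

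Of the 6 peptidase genes tested of 8, DPP4 (0.75) and NLN (0.59) rose and PRCP (-0.34, adjusted p = 0.0294) fell in GNRH2-high cells. Without control 1, control 2 or LPS the adjusted p of PRCP was 0.072, 0.143 and 0.084. Of 16 genes of receptor signalling tested of 17, 7 rose and 1 fell (18.3% and 16.0% over all genes), led by GNA11 (1.12) and MAPK3 (0.90), with ITPR2 falling (-0.77). Inside the enterocyte-like and the S100A9 and CCL20 clusters none of these peptidase and signalling genes passed, and inside the transit-amplifying-like cluster DPP4 (0.71) and GNA11 (1.10) rose.

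The receptor was not detected in Caco-2-like or HT29-like cells, and the cells of neither line were not examined for it. GNRHR had 0 UMIs in every library in both lines, which allows up to 0.0512 CPM in Caco-2-like and 0.266 CPM in HT29-like cells over the 3 libraries, by counting error only. GNRH1 was at 1.49, 1.36 and 1.36 CPM (36, 25 and 22 UMIs) in Caco-2-like and 0.755, 0.259 and 0.291 CPM (3, 1 and 1 UMIs) in HT29-like cells. KISS1R, the receptor for kisspeptin, which controls gonadotropin-releasing hormone neurons, was at 20.6, 21.8 and 23.3 CPM in Caco-2-like cells and was lower in GNRH2-high than in GNRH2-zero cells (-0.42, SE 0.16, adjusted p = 0.045). Without control 1, control 2 or LPS that adjusted p was 0.115, 0.13 and 0.153.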

How the data were processed

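The authors used Cell Ranger with GRCh38 as reference, and deposited raw counts of UMIs per gene and barcode for 3 libraries, without normalization and holding 5811, 6495 and 6838 barcodes with 33893707, 27934953 and 24185467 UMIs. The Cell Ranger version in the file headers (3.1.0) differs from that in the methods. The members and gene lists were chosen with earlier results of these data known.

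Cells were kept with at least 2250 UMIs and 770 genes (control 1) or 1500 and 700 (control 2 and, where the sources give no minimum, LPS) and at most 20% mitochondrial UMIs. The scrublet threshold of scanpy 1.11.5 marked 0, 0 and 1 doublets, so the 6% with the highest scores were removed from each library. SCTransform (sctransform 0.4.2) correcting for the mitochondrial percentage and the difference of S and G2M scores, Seurat 5.3.0 anchor integration on 3000 features without the members, 50 components, 15 neighbours and Leiden clustering (leidenalg 0.10.2, resolution 0.5) gave the clusters. A cluster was HT29-like where the mean log2 fold over the HT29 markers was at least 1 and above that of the Caco-2 markers, and Caco-2-like where it was at most -2 with at least -1 for the Caco-2 markers. Barcodes shared between libraries numbered 9 to 11 per pair and were kept.

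Counts were summed per library and group of cells and tested with edgeR 4.0.16 (TMM, filter on low counts, quasi-likelihood test, Benjamini-Hochberg over all genes tested, threshold 0.05) in R 4.3.3, after a check on simulated data. The lines, and GNRH2-high against GNRH2-zero cells, were compared with the library as a term. LPS was compared with control on 6 sums in 4 groups without that term. There the sums of both lines from the same culture entered as independent. Log2 fold changes carry TMM scaling and CPM ratios do not. Alternatives were DESeq2 1.42.0, other scaling, filters, doublets, lines, cut-offs and libraries left out. Not planned were those on GNRH2-zero cells of both lines and on the stem-like against the HT29-like cluster. Nor were those inside the S100A9 and CCL20 and the transit-amplifying-like clusters.

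Genes named are the members, the 10 most and 5 least correlated with GNRH2, the 10 most correlated with MRPS26, the 10 largest rises and 5 largest falls in GNRH2-high cells that went the same way in every library at 10 CPM or more in the higher group, up to 4 called genes per list, and PTPRA, VPS16, OXT, AVP, UBOX5 and FASTKD5. A gene that this rule would name is not reported here. Other named genes place the members among the Caco-2 markers (APOH, FGB, SERPINA1 and VIL1) or stand next to MRPS26 in rank (MRPL24 and MRPL17). GNRHR is named as the receptor, IFIT3 for a low count of calls, and some genes only in the names of clusters. No column of per-sample values was left unmapped. The total count limits precision, and intervals cover counting error only.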

Additional observations from a re-analysis of the deposited data

How the results depend on the processing

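GNRH2 and MRPS26 were higher in Caco-2-like than in HT29-like cells under all alternatives tried, with 1 exception. GNRH2 turned to -0.40 (log2 fold change, as are the values below) between the stem-like and HT29-like clusters alone, where APOA4 was at -1.16. In control 2 GNRH2 was nevertheless higher in the stem-like cluster. The alternative of GNRH2-zero cells in both lines bears on MRPS26 only, since the GNRH2 count chose the cells. UBOX5 between the lines was at 0.00077 with no doublets removed.

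LPS called 12 genes in Caco-2-like cells with no filter on low counts and 1 in the stem-like cluster. In HT29-like cells it called 4 (DESeq2), 33 (no filter), 4 (no doublets removed), 8 (the minimums of control 1 in all libraries), 7 (log-normalized clusters) and 5 (GNRH2-zero cells). There MRPS26 turned to -0.17 with no doublets removed and -0.10 in GNRH2-zero cells. GNRH2 was at -0.19 in GNRH2-zero HT29-like cells, but its own count chose these cells, so that value says nothing about LPS. With 1 control left out, the LPS fold, then without a test, ran from -0.089 to 0.28 (GNRH2) and -0.20 to -0.15 (MRPS26) in Caco-2-like cells, and from 0.16 to 1.38 and -0.21 to 0.29 in HT29-like cells.

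Where 4351 genes, the members left out, were called between GNRH2-high and GNRH2-zero cells, the count was 2319 with DESeq2, 2888 without the library block, 2665 at 8 or more GNRH2 UMIs, and 57, 95 and 259 inside the enterocyte-like, S100A9 and CCL20, and transit-amplifying-like clusters. Without the block FASTKD5 (0.56, adjusted p = 0.0719, edgeR), among others, lost its call. MRPS26 was at 1.43 for 2 or more, 1.92 for 8 or more, 1.93 on counts per 10000, and 0.74, 0.99 and 1.38 inside those clusters. Inside the enterocyte-like cluster OXT turned to -0.074 and S100G to -0.10. Inside the S100A9 and CCL20 cluster VPS16 turned to -0.34, NLN to -0.20 and ITPR2 to 0.017. Inside the transit-amplifying-like cluster UBOX5 turned to 0.24, FASTKD5 to -0.48, NLN to -0.73, MCM5 to 0.045, CLSPN to 0.028, UHRF1 to 0.42 and HMMR to 0.00263. Fewer cells enter the fits inside clusters, and the causes of the other changes were not tested.

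Mean r of the pair was 0.27 on thinned counts, 0.428 over all kept cells, 0.237 in HT29-like cells, and 0.242, 0.135, 0.259, 0.3125 and 0.436 within the S100A9 and CCL20, stem-like, enterocyte-like, transit-amplifying-like, and ITGA5 and RIMS4 clusters. With 1 LPS library, its spread is taken from the controls, and depth limits genes of a few CPM.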
